A study of Mus musculus with 8 samples.

Results

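Basal cells are the outer of the epithelial layers of the mammary gland, and the comparison concerned how their transcriptome in lactation differed from that in gestation. The cells were those that the study's annotation placed in its cluster C13 and that came from gestation (G) mice, and those that it placed in C14 and that came from lactation (L) mice. They numbered 8860 of the 25009 cells that passed quality control over all 8 libraries. The G mice gave 525 and 594 cells and the L mice 4637 and 3104 cells. All mice were females of the C57BL/6N strain with no transgene or treatment, and each library held the cells of 1 mouse, with 2 mice per stage. Glands were taken on day 14.5 of gestation and on day 6 of lactation. Live cells were sorted as EpCAM-positive and negative for CD31, CD45 and Ter119, and were profiled with the droplet-based 3′ kit of 10x Genomics, which counts unique molecular identifiers (UMIs). Nulliparous (NP) mice of 8 weeks and mice 11 days after weaning of the pups (PI) gave the basal cells of the other stages.

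Basal cells sit between the luminal cells and the basement membrane. In the alveoli of a lactating gland they form a basket of myoepithelial cells, which carry a smooth muscle type of contractile apparatus and squeeze milk into the ducts when oxytocin from the pituitary reaches their receptors. The receptor acts through Gq proteins, phospholipase C and release of calcium, which activates myosin light chain kinase. The layer also secretes much of the basement membrane and supplies growth factors to the luminal cells.

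Since cells of 1 mouse are not independent, UMIs were summed over the basal cells of each mouse and are given as CPM, the UMIs of a gene scaled to the same total of 1000000 in each mouse. A UMI stands for 1 captured 3′ end, so levels were not divided by gene length. The sums held 3956414 and 4371515 UMIs in the G mice and 21129008 and 16618285 UMIs in the L mice. Per cell the order was the opposite, with medians of 6201 and 6060 UMIs in G and 3701 and 4148 in L. Clusters C13 and C14 made up at least 98.3% of the cells of C12 to C14 in these libraries, so the cluster, the stage and the library of a cell were nearly the same division and their parts cannot be told apart. Tests were edgeR's quasi-likelihood tests over the 4 sums with Benjamini-Hochberg adjustment, and a gene was called at an adjusted p of 0.05. With 2 mice against 2 an exact permutation test cannot go below p = 0.333, and the adjusted p-values rest on a spread estimated jointly over genes. Errors given with log2 fold changes are the absolute log2 fold change divided by the square root of the F statistic. They stand in for standard errors and were not taken from the fit itself.

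Of the basal markers chosen to check the label, 7 of 8 were higher in L and Trp63, the transcription factor of the basal lineage, was not called, at 118 and 167 CPM in the G mice and 146 and 154 CPM in the L mice. Every one of them was present in all 4 mice. Markers of cells that the sort should have removed were low. Summed over 8 endothelial markers the level was 31.3 and 33.2 CPM in G and 74.2 and 34.2 CPM in L, over 8 pericyte markers 28.1 and 41.9 CPM in G and 136 and 60.1 CPM in L, and over 8 immune markers 230 and 262 CPM in G and 145 and 127 CPM in L, of which Cd74 gave most. Fibroblast markers summed to 909 and 705 CPM in G and 661 and 514 CPM in L, mostly from Dcn. The first L mouse stood above the second for pericyte and endothelial markers.

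The milk protein genes, which basal cells are not known to use, were read as free RNA taken up in droplets. They summed to 1779 and 942 CPM in the basal cells of G and 1813 and 2121 CPM in those of L, which was 1.93% and 1.76% of the level in the alveolar cells of the same G libraries and 0.897% and 0.939% in L. Wap, the whey acidic protein, was at 4.55 and 1.14 CPM in the G mice and 323 and 392 CPM in the L mice. With these ratios, the RNA of alveolar cells could give over 50% of the basal level of 12 of the genes called higher and 12 of those called lower. Milk protein genes were left out of the numbers of genes called higher or lower that follow. Those called were kept among the 512 genes followed through the alternatives and in the number of calls shared between fits.

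Nearly equal numbers of genes changed in each direction. Of 12699 genes tested, 3062 were higher in L and 3064 were lower, 24.1% in each direction and 48.2% in all. Fold changes above 2 were reached by 1698 of the higher and 1500 of the lower genes, and fold changes above 8 by 198 and 201. The mice of the stages did not overlap in 77.2% of all genes tested, and the 6126 called genes were all among these. The most abundant gene called higher was Malat1, a nuclear non-coding RNA, at 21841 and 22629 CPM in the G mice and 36965 and 38453 CPM in the L mice. The other 9 of the 10 most abundant higher genes were Acta2, Mt1, Tpm2, Tagln, Mt2, Cxcl14, Tpm1, Cald1 and Krt17. The most abundant lower gene was Rpl13, a ribosomal protein gene, at 7285 and 7693 CPM in the G mice and 4139 and 3811 CPM in the L mice. The other 9 were 8 ribosomal protein genes and Tpt1, which encodes a growth-related protein, at 4904 and 5070 CPM in the G mice and 2697 and 3275 CPM in the L mice. When the test was for a change above 2-fold at an adjusted p of 0.01 (edgeR's glmTreat), 369 genes were higher (2.91%) and 372 lower (2.93%), 5.84% in all. The median log2 fold change over all genes was 0.04, and scaling to the library total alone moved it by 0.11 to -0.07 and gave 2577 higher and 3572 lower genes, 41.9% of these calls being higher.

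**Figure D1:**
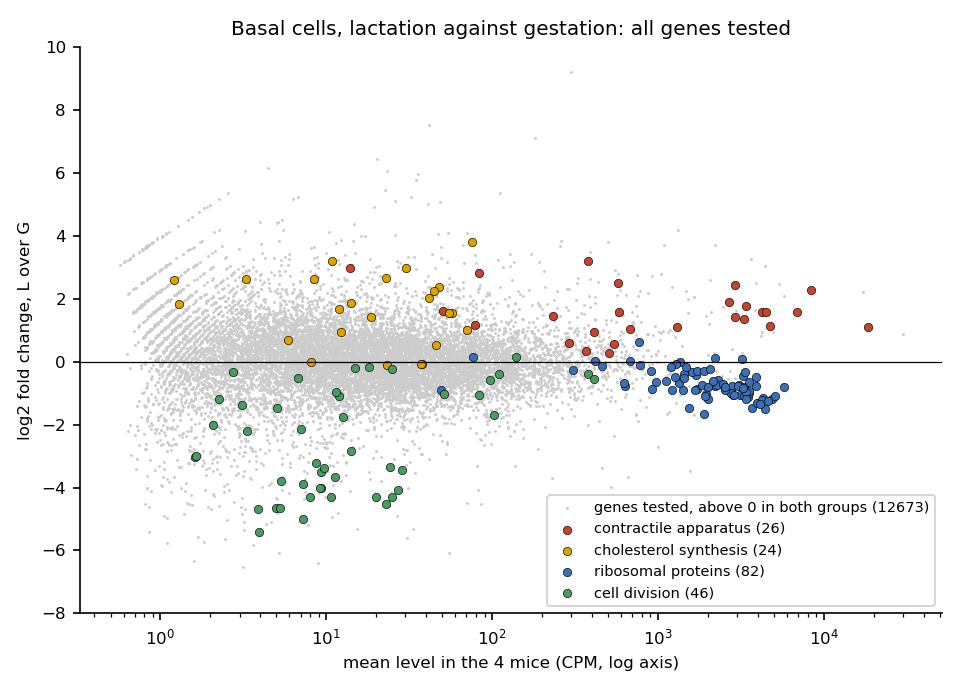
Log2 fold change of L over G (vertical axis) against the mean CPM of the 4 mice (horizontal log axis) for the 12673 genes above 0 in both stages, milk protein genes included. Coloured points are the genes of 4 lists: all 26 contractile genes lie above 0, whereas most of the 82 ribosomal protein genes and of the 46 cell division genes lie below it.

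**Figure D2:**
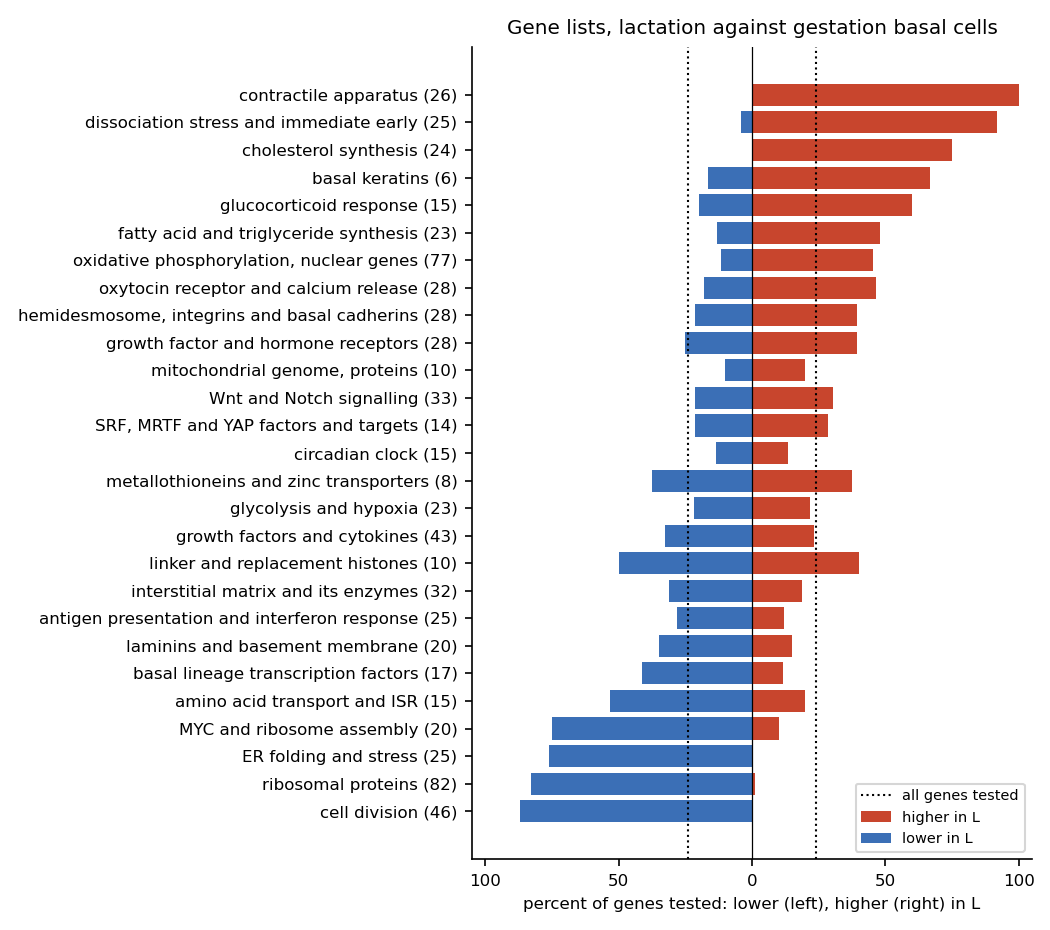
For each gene list (number of genes tested in brackets) bars give the percent of genes called higher in L (right, red) and lower in L (left, blue). Dotted lines mark the 24.1% called in each direction over all genes tested, and the lists run from contractile genes, with 26 of 26 higher, to cell division genes, with 40 of 46 lower.

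Genes of the contractile apparatus were all higher in lactation. All 26 that were listed and tested passed the test, against 24.1% of all genes, with a median log2 fold change of 1.5 against 0.04 over all genes. Their summed level was 42303 and 34103 CPM in the G mice and 105387 and 92236 CPM in the L mice, the first L mouse being the highest. Acta2, the smooth muscle actin (chromosome 19, 34241090 to 34255590, minus strand, GRCm38), was at 14200 and 10565 CPM in the G mice and 26577 and 22787 CPM in the L mice (log2 fold change 1.10 ± 0.14, adjusted p = 4.2e-04). The heavy chain of smooth muscle myosin, Myh11, was at 1380 and 1030 CPM in the G mice and 4334 and 3948 CPM in the L mice (log2 fold change 1.89 ± 0.14). Mylk, the kinase that switches this myosin on by phosphorylating its light chain, was at 2656 and 1842 CPM in the G mice and 6740 and 5657 CPM in the L mice (log2 fold change 1.57 ± 0.17). For each of these genes both L mice stood above both G mice. When 1 mouse was left out, 24 or 25 of the 26 were called.

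Genes of actin-binding proteins differed in the size of their change, which was larger for Tpm2 and Cnn1 than for Actn1 and Vcl. Tpm2, a tropomyosin, was at 3381 and 2726 CPM in the G mice and 14715 and 12599 CPM in the L mice (log2 fold change 2.27 ± 0.12), and Cnn1, the smooth muscle calponin, was at 1079 and 877 CPM in the G mice and 5216 and 4565 CPM in the L mice (log2 fold change 2.43 ± 0.13). Synm, which encodes the intermediate filament protein synemin, was at 215 and 153 CPM in the G mice and 1010 and 928 CPM in the L mice (log2 fold change 2.51 ± 0.16). The regulators of myosin phosphatase had some of the largest changes of the list. Ppp1r14a encodes CPI-17, an inhibitor of the phosphatase, and was at 99.1 and 59.7 CPM in the G mice and 762 and 601 CPM in the L mice (log2 fold change 3.21 ± 0.23, adjusted p = 3.4e-05). Ppp1r12b, a targeting subunit of the phosphatase, was at 22 and 22 CPM in the G mice and 157 and 132 CPM in the L mice (log2 fold change 2.83 ± 0.15), and Ppp1r12a, its relative, at 339.7 and 277 CPM in the G mice and 870.2 and 854 CPM in the L mice (log2 fold change 1.59 ± 0.13). Des, the muscle intermediate filament desmin, was low at 4.04 and 2.75 CPM in the G mice and 18.4 and 30.6 CPM in the L mice, and is also a pericyte marker. The smallest changes of the list were those of Actn1 and Vcl, encoding the adhesion proteins alpha-actinin and vinculin, with log2 fold changes of 0.29 ± 0.10 and 0.33 ± 0.11. The call of Actn1 was lost when any of the 4 mice was left out (adjusted p from 0.0947 to 0.146), and that of Vcl without either G mouse or without the first L mouse (adjusted p from 0.0801 to 0.139). Pericytes share many of these genes. Of 8 pericyte markers 3, Des, Notch3 and Higd1b, were higher and 5 not called, and their part in the contractile genes was not tested. Without the first and the second G mouse, Notch3 had log2 fold changes of 1.28 and 2.05 and Higd1b of 3.33 and 4.17. Neither kept its call in those fits, and Notch3 also lost it without the first L mouse (0.66). Among the markers not called, Rgs5, the defining one, was at 12.6 and 21.3 CPM in the G mice and 76.2 and 14.9 CPM in the L mice. Pdgfrb, another, was at 2.02 and 4.35 CPM in the G mice and 6.53 and 1.81 CPM in the L mice. For both, only the first L mouse stood above the G mice.

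**Figure D3:**
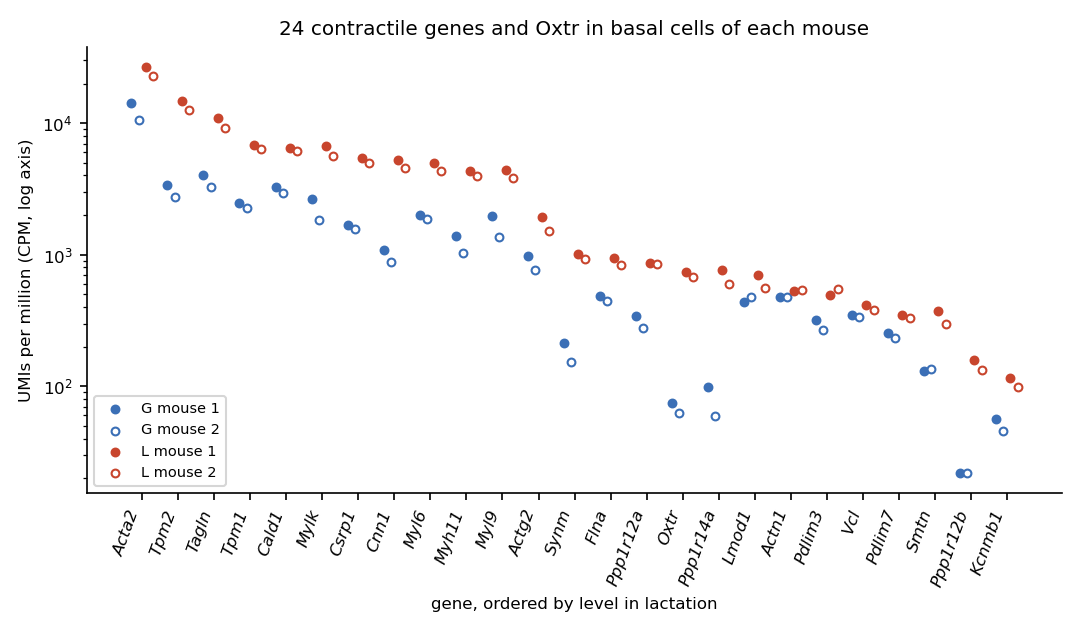
Level of the 24 contractile genes with the highest level in lactation, and of Oxtr, in basal cells of each mouse (CPM, log axis), ordered by level in lactation. Blue circles are the G mice and red circles the L mice, filled for the first and open for the second mouse, and for every gene both red circles lie above both blue ones.

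Smooth muscle genes are known targets of serum response factor, which binds the CArG box, an element of 10 bases whose pattern is the same on both strands. In the RefSeq promoter sequences (GRCm38.p6), 22 of the 26 contractile genes had an entry and 4 had none, Actg2, Myh11 and Tagln among them. Within the window from 250 to 51 bases before the annotated start, exact matches to the box stood in 2 of the 22, those of Myl9 and Vcl, and in 380 of all 32851 promoters (1.16%). Both are shown, with the box in capitals, since they are the contractile promoters in which the letters were found. The box of Myl9 (chr2:156775214-156775413, plus strand) began 161 bases before the start, and that of Vcl (chr14:20929148-20929347, plus strand) began 227 bases before it.
Myl9: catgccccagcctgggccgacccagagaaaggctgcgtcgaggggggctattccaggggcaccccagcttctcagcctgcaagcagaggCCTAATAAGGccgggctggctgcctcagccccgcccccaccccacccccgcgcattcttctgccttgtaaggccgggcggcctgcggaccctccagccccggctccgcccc
Vcl: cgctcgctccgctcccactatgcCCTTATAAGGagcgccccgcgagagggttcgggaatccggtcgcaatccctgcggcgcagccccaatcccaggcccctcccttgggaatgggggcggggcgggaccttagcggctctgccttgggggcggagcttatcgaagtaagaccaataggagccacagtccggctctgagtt
A match is a description of the letters only. Both genes were called higher, Myl9 with a log2 fold change of 1.41 ± 0.16 from 1973 and 1364 to 4392 and 3854 CPM and Vcl with 0.33 ± 0.11 from 348 and 336 to 415 and 382 CPM, while the 20 promoters without these letters also belonged to genes called higher.

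The oxytocin receptor rose, with a larger fold change than any contractile gene. Oxtr (chromosome 6, 112473683 to 112489943, minus strand) was at 74.8 and 62.7 CPM in the G mice and 743 and 672 CPM in the L mice (log2 fold change 3.47 ± 0.14, adjusted p = 5.2e-06), with no overlap between stages. Of 28 genes of the receptor and calcium list, 13 were higher, 5 lower and 10 not called. The share called was 64.3%, against 48.2% of all genes. Of the G proteins that couple the receptor, Gna11 was called higher with a log2 fold change of 0.57 ± 0.13 (adjusted p = 0.0566 without the second G mouse), and Gnaq was at 136 and 123 CPM in the G mice and 108 and 119 CPM in the L mice and was not called. Plcb1, a phospholipase C beta, was at 24 and 18.5 CPM in the G mice and 136 and 155 CPM in the L mice (log2 fold change 2.89 ± 0.17), whereas Plcb3 and Plcb4 were not called. Of the IP3 receptors that release calcium, Itpr2 fell from 13.9 and 24.2 to 6.91 and 7.34 CPM, and Itpr1 and Itpr3 were not called.

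Calcium handling after release changed in both directions. Calm2, which encodes calmodulin, the calcium sensor of myosin light chain kinase, was at 911 and 737 CPM in the G mice and 1450 and 1482 CPM in the L mice (log2 fold change 0.94 ± 0.12). Among the calcium pumps of the plasma membrane, Atp2b4 rose from 11.9 and 10.1 to 85.1 and 74.7 CPM (log2 fold change 2.98 ± 0.17), while Atp2b1 fell from 369.5 and 399 to 135 and 155 CPM (log2 fold change -1.30 ± 0.12). Rgs2, which shortens Gq signals, was at 105 and 84 CPM in the G mice and 307 and 284 CPM in the L mice (log2 fold change 1.75 ± 0.14). Rhoa, Rock1 and Rock2, a GTPase and its kinases that sensitise contraction to calcium, were not called, with log2 fold changes of 0.17, 0.00 and -0.13.

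Of the transcription factors of the contractile programme and their targets, 4 of 14 were higher, 3 lower and 7 not called, a share near that of all genes, of which 48.2% were called. Srf was at 74.3 and 71.4 CPM in the G mice and 83.2 and 69.6 CPM in the L mice and was not called (adjusted p = 0.304), nor were its partners Mkl1 and Mkl2. Myocd, which encodes myocardin, was too low to be tested. Mef2c, a muscle regulator, rose from 97.6 and 64.5 to 156 and 158 CPM (log2 fold change 1.07 ± 0.18) and Mef2d fell from 42 and 51 to 25.5 and 24.9 CPM (log2 fold change -0.78 ± 0.15). Ctgf, a target of the YAP co-activator, fell from 417 and 425 to 123 and 186 CPM, while Cyr61, another target, was not called at 881 and 581 CPM in the G mice and 610.1 and 631 CPM in the L mice.

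Basal lineage factors were more often lower than higher, with 2 higher, 7 lower and 8 not called of 17. The share called was 52.9%, against 48.2% of all genes, and their median log2 fold change was 0.05. Snai2, which encodes the repressor Slug, fell from 189 and 203 to 53.2 and 58.5 CPM (log2 fold change -1.70 ± 0.12, adjusted p = 3.6e-05). Id4, an inhibitor of helix-loop-helix factors found in basal cells, fell from 257 and 266 to 94.8 and 109.6 CPM (log2 fold change -1.24 ± 0.13). Etv4, an ETS factor downstream of FGF signals, was at 20.2 and 21.5 CPM in the G mice and 1.56 and 0.903 CPM in the L mice (log2 fold change -3.94 ± 0.29). Klf5 was at 174 and 123 CPM in the G mice and 41.9 and 53.6 CPM in the L mice (log2 fold change -1.53 ± 0.20). Trp63 and Sox9 were not called, with log2 fold changes of 0.18 ± 0.16 and 0.05 ± 0.12, and Sox10 rose from 70.8 and 93.8 to 101 and 107 CPM, a call lost without the first G mouse (adjusted p = 0.251) or the second L mouse (adjusted p = 0.0870).

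Keratins, the intermediate filaments of epithelia, were higher, among them some of luminal type. Of 6 basal keratins tested, 4 were higher and 1 lower. Krt15 was at 222 and 295 CPM in the G mice and 1640 and 1515 CPM in the L mice (log2 fold change 2.72 ± 0.15), against log2 fold changes of 1.20 ± 0.12 for Krt5, 0.95 ± 0.13 for Krt17 and 0.81 ± 0.09 for Krt14. Krt16, a keratin of activated epidermis, fell from 33.9 and 41.2 to 12.9 and 18.4 CPM. Of the luminal keratins, Krt7 was at 8.59 and 8.24 CPM in the G mice and 128 and 137 CPM in the L mice (log2 fold change 4.09 ± 0.16, adjusted p = 5.2e-06) and Krt19 at 39.9 and 40.5 CPM in the G mice and 592 and 357 CPM in the L mice (log2 fold change 3.67 ± 0.24), and neither overlapped between stages. Krt8 rose from 632 and 629.5 to 1313 and 855 CPM, and Krt18 was not called. In alveolar progenitors of the same libraries Krt7 was at 200.4 and 208 CPM in G and 86 and 138 CPM in L, and free RNA from alveolar cells could give 0.568% of the Krt7 level and 3.75% of the Krt19 level of the L basal cells. Other luminal markers fell, among them the tight junction genes Cldn4, from 30.8 and 38.2 to 2.13 and 5.66 CPM, and Cldn3, from 23 and 22.4 to 7.95 and 7.58 CPM. Of 12 luminal markers, 3 were higher, 6 lower and 3 not called.

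Genes that anchor the cells were mixed. Of 28 genes for hemidesmosomes, integrins and cadherins, 11 were higher and 6 lower. The share called was 60.7%, against 48.2% of all genes. The structural parts of the hemidesmosome were among the higher genes, with Col17a1 at 149.9 and 148 CPM in the G mice and 240.1 and 265 CPM in the L mice and Dst at 426 and 467 CPM in the G mice and 728 and 839 CPM in the L mice. Itga6, the integrin alpha chain of the hemidesmosome, fell from 775 and 822 to 444 and 519 CPM (log2 fold change -0.62 ± 0.12), and its partner Itgb4 was not called at 16.7 and 23.1 CPM in the G mice and 21.3 and 21.1 CPM in the L mice. The collagen-binding chains moved in opposite ways, since Itga1 rose from 44.7 and 26.8 to 85.4 and 95.7 CPM and Itga2 fell from 16.4 and 19.9 to 5.44 and 7.7 CPM. Cdh1, the epithelial cadherin, fell from 102 and 135 to 35.7 and 53.5 CPM, and Cdh3, the cadherin of basal cells, rose from 106 and 110.0 to 121 and 146 CPM. The call of Cdh3 was lost without either G mouse or without the second L mouse, with adjusted p from 0.0939 to 0.188.

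Basement membrane genes fell more often than they rose, with 3 higher, 7 lower and 10 not called of 20. The share called was 50%, near the 48.2% of all genes, and the median log2 fold change of the list was -0.02. Lama3 and Lamb3, which encode chains of the anchoring laminin, were higher, with log2 fold changes of 0.37 ± 0.12 and 1.12 ± 0.12. The call of Lama3 was lost when any of the 4 mice was left out, with adjusted p from 0.0522 to 0.186. Lamc1 and Lamb1, chains of the other laminins, fell, Lamc1 from 323 and 358 to 148 and 144 CPM (log2 fold change -1.11 ± 0.11). The network collagen chains fell together. Col4a1 was at 1153 and 1136 CPM in the G mice and 313 and 341 CPM in the L mice (log2 fold change -1.70 ± 0.11, adjusted p = 2.1e-05), and Col4a2 changed by -1.49 ± 0.11. Nid1, which links laminin to this network, was at 85.2 and 106 CPM in the G mice and 24 and 20.4 CPM in the L mice (log2 fold change -1.99 ± 0.16). Sparc, a matrix protein of high level, was not called, at 3161 and 2870 CPM in the G mice and 3240 and 3024 CPM in the L mice.

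Of 32 genes of the interstitial matrix and its enzymes, 6 were higher and 10 lower. The share called was 50%, near the 48.2% of all genes, and the median log2 fold change was -0.30. Fbln2, an elastic fibre protein that binds basement membranes, was at 136 and 175 CPM in the G mice and 9.42 and 7.64 CPM in the L mice (log2 fold change -4.07 ± 0.18, adjusted p = 6.9e-06). Col16a1 and Col7a1, which encode a fibril-associated collagen and the anchoring fibril collagen, changed by log2 fold changes of -2.35 ± 0.12 and -1.68 ± 0.12. Col6a1 rose from 21 and 22.4 to 119 and 84.1 CPM, the first L mouse being higher. The enzymes did not move as a block, since Mmp2 fell from 77.8 and 78.7 to 23.9 and 20.2 CPM, its inhibitor Timp1 fell from 20 and 20.4 to 2.22 and 1.5 CPM, and Adamts1, a protease of proteoglycans, rose from 318 and 293 to 1198 and 1218 CPM. The fibroblast collagens Col1a1, Col1a2 and Col3a1 were not called.

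Wnt and Notch genes were mixed, with 10 higher, 7 lower and 16 not called of 33. The share called was 51.5%, near the 48.2% of all genes. Wif1, a secreted inhibitor of Wnt proteins, was at 169 and 162 CPM in the G mice and 9.09 and 4.09 CPM in the L mice (log2 fold change -4.51 ± 0.29, adjusted p = 2.2e-05). After each cell was thinned to 1000 UMIs, Wif1 was seen in 15.2% and 13.8% of G basal cells (exact 95% intervals 12.3% to 18.6% and 11.1% to 16.8%) and in 0.884% and 0.354% of L basal cells (0.635% to 1.20% and 0.177% to 0.633%). The share in alveolar progenitors, which should lack it, was 0% and 0.794% in G and 0.704% and 0% in L. Without thinning the basal shares were 59.4% and 59.8% in G and 3.93% and 2.06% in L. Tcf7, a nuclear effector of Wnt signals, fell from 49.8 and 55.6 to 5.49 and 7.46 CPM, and Axin2, a common target, was not called at 2.53 and 2.29 CPM in the G mice and 2.65 and 1.26 CPM in the L mice. Wnt6 rose from 49.5 and 44.6 to 128 and 136 CPM. Of the Notch ligands, Dll1 rose from 58.1 and 43 to 158 and 144 CPM while Jag1 fell from 189 and 225 to 75 and 93.9 CPM. Hes1, a Notch target, was at 20 and 14.9 CPM in the G mice and 135 and 150.5 CPM in the L mice (log2 fold change 3.15 ± 0.17).

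Secreted factors were among the largest changes. Of 43 growth factor and cytokine genes tested, 10 were higher, close to the 24.1% of all genes, and 14 were lower. Lep, which encodes leptin (chromosome 6, 29060220 to 29073877), was at 1.01 and 0 CPM in the G mice and 81.4 and 85 CPM in the L mice (log2 fold change 7.51 ± 0.40, adjusted p = 1.1e-05), from 4 UMIs in all in the G cells and 1719 and 1413 UMIs in the L cells. At 1000 UMIs per cell it was seen in 7.12% and 6.8% of L basal cells (exact 95% intervals 6.39% to 7.90% and 5.94% to 7.74%) and in 0 of 525 and 0 of 594 G basal cells (upper bounds 0.700% and 0.619%). The share in alveolar progenitors of the L mice was 0.704% and 1.12%. Unthinned, the shares were 25.4% and 28.7% in L basal cells, with median depths of 3701 and 4148 UMIs, and 6.34% and 3.37% in alveolar progenitors, with 6691 and 8065 UMIs. Lep is also an adipocyte marker. The 8 adipocyte markers summed to 81.4 and 79.6 CPM in G and 346 and 163 CPM in L, of which Fabp4 gave 79.4 and 78.7 CPM in G and 262 and 76.2 CPM in L. The other defining adipocyte genes Adipoq, Plin1, Cidec, Retn and Cfd each stood at or below 0.361 CPM in every mouse.

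The insulin-like growth factor binding proteins, which hold these factors outside the cell, changed in opposite directions. Igfbp5 was at 2862 and 2895 CPM in the G mice and 275 and 207 CPM in the L mice (log2 fold change -3.47 ± 0.14, adjusted p = 5.2e-06), and Igfbp3 was at 702 and 989.6 CPM in the G mice and 90 and 62.2 CPM in the L mice (log2 fold change -3.36 ± 0.22). Igfbp6 went the other way, from 3.29 and 8.01 to 265 and 171 CPM (log2 fold change 5.35 ± 0.34), the first L mouse being higher. Igfbp4 fell from 249 and 249.6 to 79.1 and 95 CPM, and Igfbp2 was not called. Fst, which encodes follistatin, a trap for activins, was at 1914 and 1611 CPM in the G mice and 236 and 259 CPM in the L mice (log2 fold change -2.72 ± 0.13, adjusted p = 7.6e-06), and Inhba, an activin subunit, fell from 18.7 and 18.5 to 2.04 and 2.17 CPM.

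Ligands of the EGF receptor family fell where they were called. Areg, which encodes amphiregulin, was at 22 and 37.7 CPM in the G mice and 0.805 and 0.542 CPM in the L mice (log2 fold change -5.32 ± 0.36). Hbegf was at 87.5 and 63.8 CPM in the G mice and 31.8 and 33.5 CPM in the L mice, and Tgfa at 25.8 and 29.3 CPM in the G mice and 8.8 and 7.64 CPM in the L mice. Nrg1, the ligand that basal cells send to luminal ERBB receptors, was not called, at 491 and 574 CPM in the G mice and 406 and 397 CPM in the L mice. Errfi1, a feedback inhibitor of the receptor, fell from 2545 and 2574 to 769 and 697 CPM. Vegfa, the main angiogenic factor, fell from 276 and 379 to 92.1 and 105 CPM (log2 fold change -1.62 ± 0.17). The chemokine Cxcl14 rose from 1599 and 1951 to 9608 and 8459 CPM (log2 fold change 2.46 ± 0.12). Pthlh, whose product mobilises calcium from bone, rose from 33.4 and 38.2 to 70.8 and 68.8 CPM.

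Of 28 receptors for growth factors and hormones, 11 were higher, 7 lower and 10 not called. The share called was 64.3%, against 48.2% of all genes. Il6st, the shared signalling chain of the interleukin 6 family, was at 69 and 71.8 CPM in the G mice and 213 and 184 CPM in the L mice (log2 fold change 1.61 ± 0.13), and its partner Lifr rose from 108 and 95.4 to 174 and 157 CPM. The glucocorticoid receptor Nr3c1 fell from 146 and 130.2 to 86 and 86 CPM. Prlr, the prolactin receptor, was low in basal cells and fell, at 1.77 and 5.26 CPM in the G mice and 1.23 and 0.842 CPM in the L mice, a call lost without the second G mouse (adjusted p = 0.529) or the second L mouse (adjusted p = 0.0667).

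Genes that respond to glucocorticoids were more often higher, with 9 higher, 3 lower and 3 not called of 15 and a median log2 fold change of 0.77. Zbtb16, which encodes the factor PLZF, was at 2.02 and 0.686 CPM in the G mice and 53.1 and 21.7 CPM in the L mice (log2 fold change 4.92 ± 0.64), and Fkbp5, a chaperone of the receptor, at 2.78 and 3.2 CPM in the G mice and 15.7 and 7.22 CPM in the L mice. For both, and for Tsc22d3 at 35.1 and 21 CPM in the G mice and 95.5 and 46.3 CPM in the L mice, the first L mouse stood above the second. The call of Tsc22d3 was lost without the second G mouse (adjusted p = 0.0560). Mt1, a metallothionein that binds zinc and copper, was at 6788 and 6275 CPM in the G mice and 26121 and 29582 CPM in the L mice (log2 fold change 2.20 ± 0.09). Mt2, its neighbour, was at 2485 and 2189 CPM in the G mice and 8513 and 9913 CPM in the L mice (log2 fold change 2.09 ± 0.11). Of 15 clock genes 11 were not called, and the share called was 26.7%, against 48.2% of all genes. Bhlhe40 and Bhlhe41 rose with log2 fold changes of 2.07 ± 0.14 and 1.68 ± 0.12, and Nr1d2 and Ciart fell with -1.01 ± 0.20 and -1.17 ± 0.41. The call of Ciart was lost without the second G mouse (adjusted p = 0.313) or the second L mouse (adjusted p = 0.145).

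Immediate early and heat shock genes, which are also known to be induced when tissue is digested, were higher in lactation. Of 25, 23 were higher and 1, Fosl1, lower, with a median log2 fold change of 2.05. Fos, an AP-1 subunit, was at 1415 and 630.0 CPM in the G mice and 8879 and 6663 CPM in the L mice (log2 fold change 3.03 ± 0.33, adjusted p = 2.4e-04), and the first G mouse was above the second. Atf3 was at 697 and 561 CPM in the G mice and 3900 and 3110 CPM in the L mice (log2 fold change 2.59 ± 0.15), and Hspb1, a small heat shock protein that binds actin filaments, at 1437 and 1049 CPM in the G mice and 6825 and 6215 CPM in the L mice (log2 fold change 2.50 ± 0.15). Socs3, the feedback inhibitor of STAT3 signals, had the largest change of the list, from 212 and 86.5 to 2448 and 2568 CPM (log2 fold change 4.19 ± 0.36, adjusted p = 7.2e-05). It was seen in 15.4% and 9.43% of G basal cells and 85.6% and 86.5% of L basal cells at 1000 UMIs per cell (exact 95% intervals 12.5% to 18.8%, 7.2% to 12.1%, 84.6% to 86.6% and 85.2% to 87.7%), against 4.49% and 3.18% of alveolar progenitors in G and 24.6% and 29.2% in L. Unthinned, its shares were 57.5% and 32.8% in G basal cells and 98.3% and 98.5% in L basal cells.

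The authors had first split the L basal cells into 2 clusters and then merged them into C14, and these differed in the same genes. The list of immediate early and heat shock genes summed to 61649 and 62932 CPM in the cells of the first of these clusters (2572 and 958 cells) and to 34031 and 32932 CPM in those of the second (2065 and 2146 cells), against 14805 and 10162 CPM in the G mice. Metallothionein and zinc transporter genes ran the other way, with 22479 and 22474 CPM in the first and 54687 and 49098 CPM in the second. Contractile genes were nearly level between them, with a median log2 difference of 0.09 in the first L mouse and 0.11 in the second. Their sum was 109210 and 97840 CPM in the first and 99224 and 89171 CPM in the second, all above the G mice. Pericyte markers summed to 197 and 104 CPM in the first cluster and 38.7 and 36.3 CPM in the second, the latter within the range of the G mice. These values describe clusters made from the same genes and were not tested. The part of tissue handling in the immediate early and heat shock genes was not tested.

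Cell division genes were lower, with 40 of 46 called lower and the other 6 not called, and a median log2 fold change of -2.93. Mki67, the proliferation marker Ki-67, was at 51.8 and 36.8 CPM in the G mice and 2.13 and 1.32 CPM in the L mice (log2 fold change -4.54 ± 0.27, adjusted p = 1.6e-05). At 1000 UMIs per cell it was seen in 6.48% and 3.70% of G basal cells (exact 95% intervals 4.53% to 8.93% and 2.33% to 5.55%) and 0.172% and 0.129% of L basal cells (0.0745% to 0.340% and 0.0351% to 0.330%). Top2a, which untangles replicated DNA, was at 61.7 and 43.7 CPM in the G mice and 5.25 and 3.61 CPM in the L mice, and Cdk1, the mitotic kinase, at 23 and 19.2 CPM in the G mice and 2.27 and 0.662 CPM in the L mice. Among the replication genes Mcm4, Mcm7, Pcna and Gins2 were not called. Ccnd1, a cyclin of G1, had a log2 fold change of -1.01 ± 0.16, and Ccnb1, a cyclin of mitosis, one of -3.89 ± 0.39. The linker histones Hist1h1b and Hist1h1e fell from 52.8 and 50.6 to 1.89 and 1.2 CPM and from 88.5 and 94.7 to 29.4 and 22.4 CPM. The replication-independent linker histone H1f0 rose from 118 and 115 to 195 and 152 CPM.

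Ribosomal protein genes summed to 256094 and 256479 CPM in the G mice and to 132900 and 132664 CPM in the L mice. Of 82 tested, 68 were lower, 13 were not called and 1, Rps29, was higher, with a median log2 fold change of -0.79. Rpl32, a protein of the large subunit, was at 6668 and 6702 CPM in the G mice and 2179 and 2150 CPM in the L mice (log2 fold change -1.52 ± 0.08, adjusted p = 1.2e-05), and Rpl12 had the largest change, from 2897 and 2994 to 853 and 853 CPM (log2 fold change -1.68 ± 0.09). Among those not called, Rpl41 was at 3483 and 2950 CPM in the G mice and 3184 and 3182 CPM in the L mice, and Rpl37a at 2358 and 2058 CPM in the G mice and 2154 and 2234 CPM in the L mice. These genes have many processed pseudogenes of near-identical sequence, so their counts depend on how shared reads were assigned. The number called lower was 68 with TMM and 72 with the library total alone. Factors of ribosome assembly fell too, with 15 of 20 lower and 2 higher. Npm1, which encodes nucleophosmin, was at 1790 and 1764 CPM in the G mice and 519 and 569.6 CPM in the L mice and Nolc1, a nucleolar protein, at 133 and 156 CPM in the G mice and 39.9 and 40 CPM in the L mice. Myc itself, which drives many of these genes, was higher, at 111 and 93.1 CPM in the G mice and 172 and 199 CPM in the L mice (log2 fold change 0.97 ± 0.14).

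Genes of cholesterol synthesis and uptake were higher, with 18 of 24 called higher and the other 6 not called, and a median log2 fold change of 1.76. Fdps, which makes farnesyl diphosphate, was at 13.6 and 8.24 CPM in the G mice and 129 and 150.0 CPM in the L mice (log2 fold change 3.79 ± 0.22, adjusted p = 1.5e-05). Nsdhl, a late enzyme of the sterol ring, was at 6.57 and 8.01 CPM in the G mice and 51.5 and 55.4 CPM in the L mice. Srebf2, the factor that controls the pathway, rose from 33.6 and 26.5 to 77.7 and 83 CPM. Of 23 genes of fatty acid and triglyceride synthesis, 11 were higher and 3 lower, with a median log2 fold change of 0.47. The summed level of this list was instead lower in L, at 1071 and 1361.5 CPM in the G mice and 972 and 822 CPM in the L mice. Acly rose from 17.4 and 17.4 to 37.6 and 34.8 CPM, Fasn was not called at 19.5 and 19.9 CPM in the G mice and 17.6 and 15.8 CPM in the L mice, and Plin2, which coats lipid droplets, fell from 127 and 150.3 to 35.2 and 44.2 CPM.

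Endoplasmic reticulum genes were lower, with 19 of 25 called lower, the other 6 not called and a median log2 fold change of -0.56. Hspa5, the chaperone BiP, was at 618 and 545 CPM in the G mice and 398 and 366 CPM in the L mice (log2 fold change -0.50 ± 0.11), and Sec61a1, the channel through which proteins enter, at 90 and 95.4 CPM in the G mice and 32.8 and 31.4 CPM in the L mice (log2 fold change -1.42 ± 0.13). Xbp1, a transcription factor for secretory capacity, fell from 75.3 and 83.7 to 37.5 and 30.4 CPM. Among amino acid transport and stress response genes 3 were higher and 8 lower of 15, with Slc7a5, a leucine transporter, falling from 66.7 and 88.3 to 29.1 and 26.8 CPM. Nuclear genes of oxidative phosphorylation were higher in 35 of 77 and lower in 9. The share called was 57.1%, against 48.2% of all genes. Among the higher genes was Ndufa12, a subunit of complex I, which rose from 58.1 and 62.9 to 137 and 155 CPM. Glycolysis genes were split, with 5 higher, 5 lower and 13 not called, a share called of 43.5%. Ldha fell from 651 and 748 to 288 and 289 CPM and Ndrg1, a hypoxia target, from 229.8 and 276 to 50.3 and 56.8 CPM. Of 25 antigen presentation and interferon genes 10 were called, against 48.2% of all genes. Among them B2m, the light chain of class I molecules, fell from 1364 and 1116 to 481 and 673 CPM.

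Among genes of at least 20 CPM in both mice of a stage, the largest rises were named by size. Tnni2, which encodes the troponin I of fast skeletal muscle (chromosome 7, 142441808 to 142444410), had no UMI in the G cells and was at 90.3 and 70.8 CPM in the L mice, at least 224-fold higher than the 0.360 CPM that 3 UMIs over the G cells would give. It was seen in 6.36% and 4.77% of L basal cells at 1000 UMIs per cell (exact 95% intervals 5.68% to 7.1% and 4.04% to 5.58%), and in 17.0% and 14.5% unthinned. In alveolar progenitors of the L mice 1.41% and 1.12% had a UMI after thinning. Other rises after Lep were those of Ogn (osteoglycin, 1.01 and 0.458 to 34 and 57.4 CPM), Ly6h (1.52 and 0.915 to 110.1 and 31.1 CPM, with the L mice far apart), Uts2b (a urotensin peptide, 1.77 and 0.915 to 62.7 and 73.5 CPM), Lims2 (an adhesion protein, 2.02 and 1.6 to 68.2 and 56.9 CPM), Dmpk (the myotonic dystrophy kinase, 3.79 and 2.29 to 104 and 85 CPM) and Ptprz1 (a receptor phosphatase, 2.27 and 2.97 to 81.3 and 77 CPM). Cck, the peptide cholecystokinin, was at 2.27 and 0.915 CPM in the G mice and 50.9 and 49 CPM in the L mice. It stood at 981 and 708 CPM in the alveolar progenitors of the L mice, where 41.5% and 30.3% of thinned cells held a UMI against 3.80% and 3.51% of basal cells. Free RNA from alveolar cells could give 67.3% and 108% of its basal level in G and 16.2% and 13.8% in L. Pdzd3 and Adamtsl1 completed the named rises, with log2 fold changes of 5.45 ± 0.50 and 4.38 ± 0.29. Of 55 genes chosen for the size of their change, their level or their role in contraction, 19 overlap a gene on the other strand in the annotation, among them Ogn, Krt7, Lims2, Mki67, Ube2c, Tagln, Cald1 and Rpl32. The counts came from Cell Ranger, whether its counting used the strand is not given in the sources used here, and without strand such reads cannot be told apart.

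Among genes of at least 20 CPM in both mice of a stage, the largest fall was that of Col9a1, a chain of collagen IX, at 117 and 101 CPM in the G mice and 1.47 and 1.5 CPM in the L mice (log2 fold change -6.08 ± 0.18, adjusted p = 1.8e-06). Opcml, a cell adhesion protein, was at 59.4 and 60.6 CPM in the G mice and 1.14 and 1.14 CPM in the L mice (log2 fold change -5.60 ± 0.18). Adamts18, a secreted metalloprotease of mammary myoepithelium, was at 132 and 138 CPM in the G mice and 5.58 and 5.48 CPM in the L mice (log2 fold change -4.49 ± 0.15). Pappa, a protease that frees insulin-like growth factors from their binding proteins, was at 44 and 47.8 CPM in the G mice and 2.13 and 1.32 CPM in the L mice, and Tnfrsf18, a receptor of the tumour necrosis factor family, at 21.2 and 31.3 CPM in the G mice and 1.37 and 1.44 CPM in the L mice. Fbn2, an elastic fibre protein, changed by -4.11 ± 0.21. The remaining named falls were Cenpf, Ube2c, Cenpa and 2810417H13Rik, with log2 fold changes from -5.33 to -4.07, the first 3 of which act in mitosis. Both L mice were below both G mice for each of these genes, as the rule for naming them required.

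Basal cells of the other stages were set beside these levels. Of 648 genes called over 2-fold higher at 20 CPM or more, the mean NP level was nearer to that of L than to that of G for 100, and of 665 called over 2-fold lower for 140. Oxtr was at 52.2 and 72.7 CPM in NP mice and 8.96 and 10.6 CPM in PI mice, and Cnn1 at 404 and 562 and 341 and 275 CPM, both beneath every L mouse. Fst had NP levels of 1658 and 1768 CPM and PI levels of 1416 and 1610 CPM, near those of G. Col4a1 was instead high in G alone, since NP mice were at 216 and 311 CPM and PI mice at 26.9 and 63.4 CPM. Igfbp5 in NP mice was at 777 and 747 CPM, between G and L. Krt7 in NP mice was at 169.9 and 121 CPM, near its level in L, while the PI mice lay far apart at 8.96 and 472 CPM. Areg, like Krt7 a luminal marker, was at 248 and 377 CPM in NP, 22 and 37.7 CPM in G and 0 and 257 CPM in PI. Free RNA was not estimated in the NP and PI libraries, and the part of luminal RNA in these levels was not tested. Cxcl14 in PI mice, at 7233 and 7162 CPM, was nearer to L than G was. These are descriptions over 2 mice a stage, and the PI sums rest on 27 and 53 cells with 111570 and 283862 UMIs. A level near 10 CPM in the first PI mouse thus stands for very few UMIs.

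**Figure D4:**
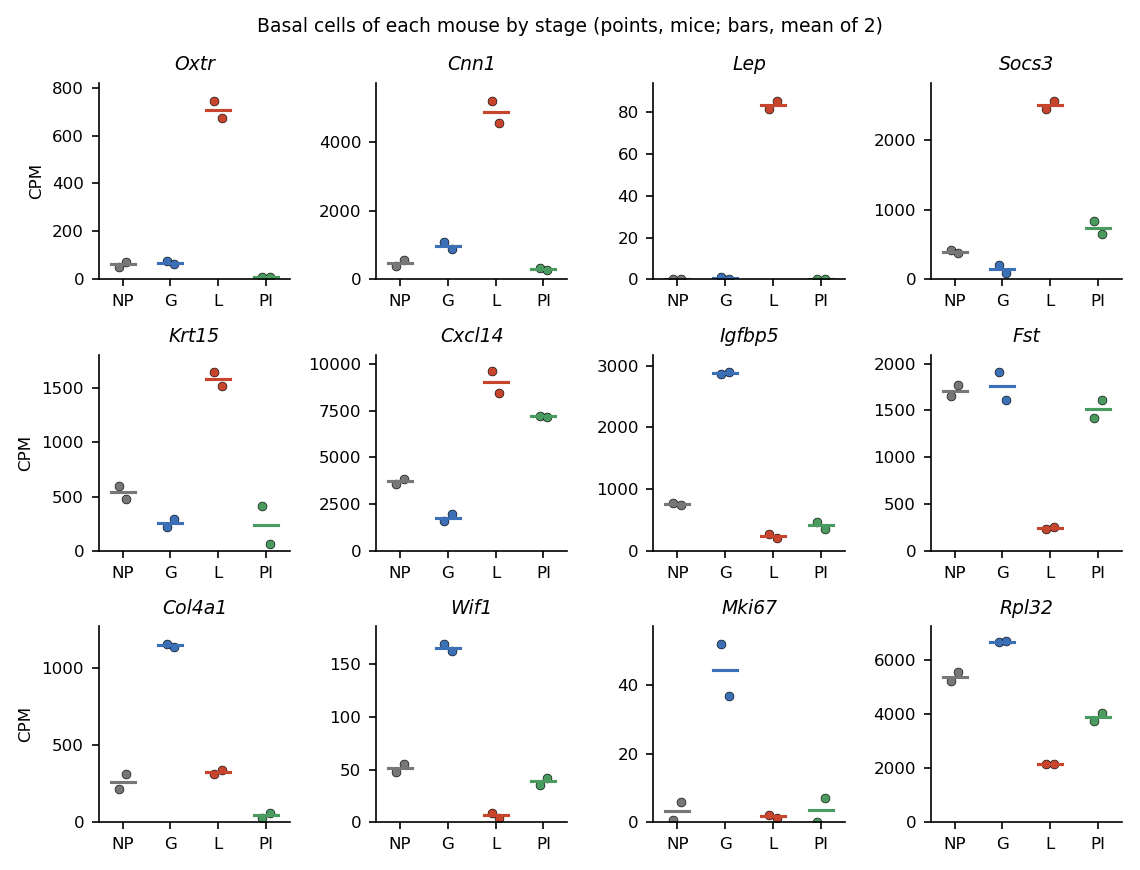
Level of 12 genes (CPM) in basal cells of each mouse at the NP, G, L and PI stages. Points are mice and bars the mean of 2 mice. Oxtr, Cnn1, Lep, Socs3 and Krt15 stand highest in L, Fst and Rpl32 lowest in L, and Igfbp5, Col4a1, Wif1 and Mki67 highest in G.

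Whether the changes were those of the whole gland was asked by comparing them with the alveolar progenitors of the same mice (C10 in G, 89 and 126 cells, and C11 in L, 142 and 89 cells), a comparison in which a shift shared by all cells of a library enters both sides. An interaction of cell type and stage was tested with the mouse as a block. Of 11453 genes, the change from G to L was more positive in basal cells for 689 (6.02%) and more negative for 1501 (13.1%). These counts moved with the settings: 214 were more positive with DESeq2, 425 without the second G mouse and 1998 against all alveolar cells, and the share of calls that were more positive was 31.5% here and 51.7% against all alveolar cells. The alveolar progenitors of the L mice also held markers of basal cells. Summed over Krt5, Krt14, Acta2, Myh11 and Cnn1, their level was 0.706% and 1.42% of that of basal cells in G and 14.2% and 11.3% in L. Acta2 in alveolar progenitors went from 88 and 122 to 3659 and 2439 CPM. For 18 of 26 contractile genes the change was more negative in basal cells on the log scale, and the part of basal RNA in the 1501 genes was not tested.

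Endoplasmic reticulum genes moved apart in the cell types. All 25 had a more negative change in basal cells, and 18 of them were higher in L in alveolar progenitors whereas 19 were lower in L in basal cells. Over all 8398 genes tested in alveolar progenitors, 16% were higher in L and 12.9% lower. Hspa5 was at 775 and 618 CPM in the alveolar progenitors of G and 3090 and 2859 CPM in those of L (interaction -2.94 on the log2 scale, adjusted p = 1.7e-08). Of 23 glycolysis genes, which had no common direction in basal cells, 14 had a more negative change there than in alveolar progenitors and the other 9 were not called. Ldha in alveolar progenitors was at 366 and 313 CPM in G and 1217 and 1454 CPM in L (interaction -3.49, adjusted p = 8.0e-09). Cholesterol genes differed the other way, with 8 of 22 more positive in basal cells and 1, Ebp, more negative. Fdps in alveolar progenitors was at 96.4 and 78.6 CPM in G and 139.7 and 138 CPM in L, and its interaction was 2.78 (adjusted p = 1.1e-06). Immediate early and heat shock genes were higher in L in both cell types, 18 of 25 in alveolar progenitors. Their change was more positive in basal cells for 15 and more negative for 2. Since basal markers in the L alveolar progenitors stood at 14.2% and 11.3% of the basal level, basal RNA could enter these rises. Its part in them was not tested.

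Some single genes had large interactions. Igfbp5, which fell in basal cells, was at 352 and 335 CPM in alveolar progenitors of G and 1244 and 1218 CPM in those of L (interaction -5.67, adjusted p = 6.1e-11). Krt7, which rose in basal cells, was not called in alveolar progenitors (adjusted p = 0.0563), and its interaction was 4.64 (adjusted p = 6.1e-09). Col9a1 fell in basal cells and went from 16.8 and 9.36 to 50 and 36.4 CPM in alveolar progenitors (interaction -8.19, adjusted p = 1.4e-09). Ribosomal protein genes were instead lower in both cell types, 51 of 82 in alveolar progenitors, where 12.9% of all genes tested were lower. Their change was more negative in basal cells for 7 of 82, against 13.1% of all genes. Cell division genes were lower in alveolar progenitors for 39 of 42, and the interaction was called for 16 of 46, of which 13 were more negative in basal cells.

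**Figure D5:**
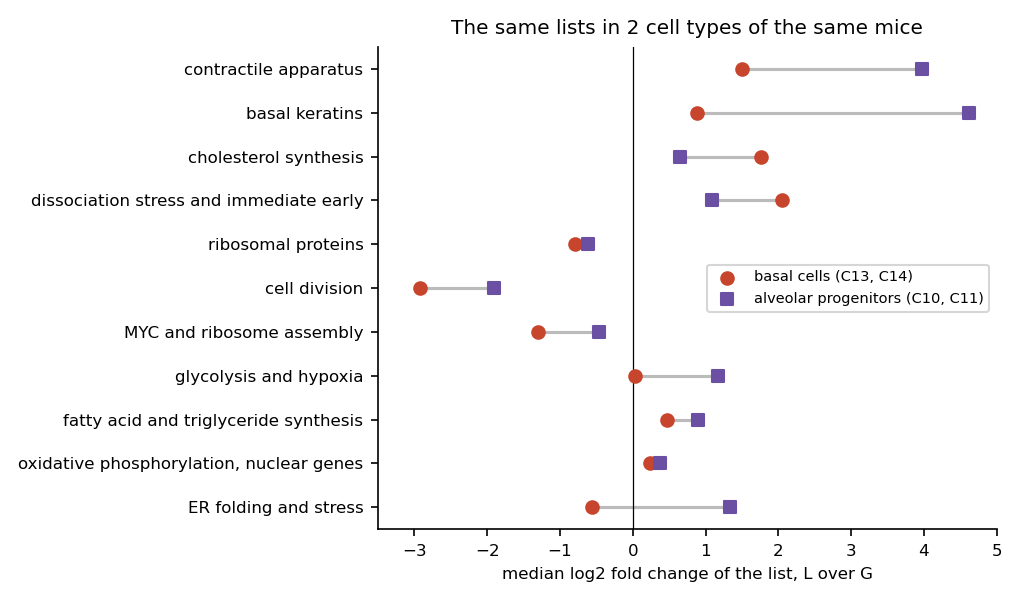
Median log2 fold change of L over G of 11 gene lists in basal cells (red circles) and in alveolar progenitors of the same mice (purple squares). Ribosomal, cell division and assembly genes lie below 0 in both, the endoplasmic reticulum list lies below 0 in basal cells and above 0 in alveolar progenitors, and the contractile and keratin lists lie furthest right in the alveolar progenitors, in which basal markers stood at 14.2% and 11.3% of the basal level in L.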

How the data were processed

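Droplet-based 3′ single-cell libraries of sorted mammary epithelial cells were made by the authors from 8 mice, 2 each of 4 stages. The deposited matrices held raw UMI counts per gene and cell, quantified by the authors with Cell Ranger, with STAR and mm10 named in the submitters' processing notes (versions are not given in the sources used here). The authors removed 791 barcodes held by more than 1 library and cells failing quality control, and their annotation gave the cluster of each cell, its count of UMIs and the fraction of UMIs from mitochondrial genes. A combined matrix was not used. Shared barcodes were removed by the authors, no doublet caller was run here, and leaving out the 5% deepest cells of each library was an alternative. The compared cells of different libraries shared 0 barcodes.

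UMI counts were summed per library over C13 cells of G and C14 cells of L, filtered with filterByExpr, scaled by TMM (factors 0.955 to 1.04) and tested with edgeR 4.0.16 (glmQLFit and glmQLFTest, limma 3.58.1, R 4.3.3) with Benjamini-Hochberg adjustment at 0.05. The fit had 2 residual and 6.33 prior degrees of freedom. The interaction with alveolar progenitors had the mouse as a term. Replicates were separate mice, and p-values rest on the spread between mice of a stage, estimated jointly over genes. Alternatives were DESeq2 1.42.0, other scalings, filters, cells and depths, and each mouse left out. Python 3.11.15, pandas 2.3.3, numpy 2.4.6, scipy 1.17.1 and matplotlib 3.10.9 were used for the rest. Shares of cells were taken after thinning to 1000 UMIs, with exact (Clopper-Pearson) 95% intervals, which cover counting error only.

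Counts of 12672 genes were simulated from the means of these 4 sums. The test recovered 51% of changes of 1 and 94.8% of changes of 2 on the log2 scale, and 1.39% of calls were unchanged genes. Only 98 and 97 tested genes were given these changes, in both directions, and all genes were given the same spread. In the data 48.2% of genes were called and the spread differed between genes, so these rates need not hold there. The groups shared replicate numbers, but same-numbered mice did not deviate together (correlation 0.0234 over 12707 genes), so the numbers were not used as pairs.

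Members and gene lists were chosen with earlier results of these data known. Named genes were the 15 largest rises and falls among called genes of at least 20 CPM in both mice of a stage, with no overlap and at most 50% of their level from free RNA, the 10 most abundant called genes in each direction, list members, and the 5 largest interactions each way. Some list members are not reported here. Free RNA was estimated from the 8 milk protein genes. Promoters came from RefSeq (GRCm38.p6) and gene coordinates from GENCODE (GRCm38).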

Additional observations from a re-analysis of the deposited data

Results flagged for a closer look

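The change from gestation to lactation differed between basal cells and alveolar progenitors of the same mice for 689 genes in the positive and 1501 genes in the negative direction. Where alveolar progenitors of 1 stage were listed at 0, CPM values are given without a fold. Igf2 (adjusted p of the interaction = 2.5e-05, edgeR) was at 24.5 and 106 CPM in the alveolar progenitors of G and 0 in both L mice, and between 1.01 and 2.75 CPM in basal cells. Lect1 (adjusted p = 3.9e-07) was at 70.4 and 95.5 CPM in the alveolar progenitors of G and 2.78 and 0 CPM in L, while basal cells were at 6.07 and 4.58 CPM in G and 20.6 and 16.6 CPM in L. Rspo1, a Wnt agonist, was at 448 and 372 CPM in the alveolar progenitors of G and 3.7 and 1.18 CPM in L, against 29.3 and 29.5 CPM and 9.42 and 13.2 CPM in basal cells (adjusted p = 1.7e-07). Piezo2, a mechanically gated channel, rose in basal cells from 1.01 and 1.6 CPM to 4.12 and 4.39 CPM and went from 30.6 and 21.2 CPM to 0.925 and 1.18 CPM in alveolar progenitors (adjusted p = 7.3e-05). Slc5a7, the choline transporter, rose in basal cells from 0.253 and 0.458 CPM to 12.2 and 12.3 CPM (adjusted p of the interaction = 5.0e-06), and stood at 34.4 and 43 CPM in G and 25 and 28.2 CPM in L in alveolar progenitors.

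In the negative direction Sobp (adjusted p = 1.7e-04), Pcdh7 (adjusted p = 5.8e-05) and Scn7a (adjusted p = 4.1e-04) were at 0 in both alveolar progenitor sums of G and at 9.4 to 31.7 CPM in those of L. Basal cells of L held these 3 genes at 68.4 to 216 CPM, and the summed level of 5 basal markers in those alveolar progenitors was 14.2% and 11.3% of that in the basal cells. The part of basal RNA in these interactions was not tested. Saa1, an acute phase protein (adjusted p = 0.0423), was at 0 in the alveolar progenitors of G and 121 and 102 CPM in those of L. In basal cells Saa1 was at 4.04 and 6.86 CPM in G and at 0.331 and 30.7 CPM in L, and free RNA from alveolar cells could give 426% and 58.4% of the level in the L mice. Clec2e (adjusted p = 4.4e-05) was at 0 and 0.624 CPM in the alveolar progenitors of G and 36.1 and 40 CPM in those of L, and at most 2.06 CPM in basal cells.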

How the results depend on the processing

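The 512 genes followed were all called in the basal fit, so each could lose its call but not gain one. Genes that an alternative did not test gave no value, and the filter of 0.1 UMI per cell gave 396 values. Of 9066 values recomputed under the alternatives for the basal comparison, 0 reversed and 8258 kept their call. Among the 808 lost calls, 361 came from requiring a fold above 2 (glmTreat). That rule left 369 higher and 372 lower genes, with 13 contractile, 9 cholesterol, 14 immediate early and 4 glucocorticoid genes higher and 24 cell division, 6 ribosomal, 7 ribosome assembly and 0 endoplasmic reticulum genes lower (19 without the fold requirement). A mean of at least 0.1 UMI per cell, which tests fewer genes, left 1706 higher and 1646 lower genes, 11 cholesterol and 7 cell division genes among them. This mean was taken over all 8860 cells, most of them from L mice, so genes found mainly in G cells passed it less easily. Leaving out 1 mouse gave 2155 to 2722 higher and 2286 to 2754 lower genes, with 24 to 25 contractile, 16 to 18 cholesterol, 22 to 24 immediate early, 8 to 11 glucocorticoid, 34 to 39 cell division, 63 to 68 ribosomal, 14 to 16 ribosome assembly and 15 to 18 endoplasmic reticulum genes called.

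The interaction depended more on the settings. Genes more positive and more negative in basal cells numbered 214 and 779 with DESeq2 and 381 and 788 with equal numbers of cells. The more positive numbered 424 at equal depth and 1998 against all alveolar cells. Leaving out 1 mouse gave 425 (without the second G mouse) to 953 more positive and 1096 to 1265 more negative genes. The share of calls that were more positive was 31.5%, against 51.7% with all alveolar cells and 41.4% and 43.0% without the first and the second L mouse; the cause was not tested. With the replicate number as a block, 3034 genes were higher and 3063 lower, 5940 of them shared with the fit without it, and the interaction had 624 and 1388. Taking C12 to C15 together, chosen after seeing the data, gave 3083 and 3058. With 27 and 53 PI cells and 89 to 142 alveolar progenitors per mouse, genes of low level were not measured with precision.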

Other observations

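Schwann cell and melanocyte markers were low in basal cells apart from Sox10, which basal cells share, and Mbp. Of 5 tested, 3 were higher in lactation. Mitf, a melanocyte transcription factor, was at 2.02 and 2.29 CPM in the G mice and 7.95 and 6.98 CPM in the L mice. Mbp was not called, and Dct, Pmel and S100b were too low to be tested.

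Histone genes of the linker and replacement kind were split, with 4 of 10 higher and 5 lower. The lower genes were the replication-dependent linker histones Hist1h1a to Hist1h1e, of which Hist1h1c, the most abundant, fell from 179 and 149 to 79 and 112 CPM, a call lost without the first G mouse (adjusted p = 0.0673) or the first L mouse (adjusted p = 0.0718). The higher genes were H1f0, H3f3b, H2afj and Hist1h2bc, of which H3f3b, a replacement histone, rose from 2468 and 2609 to 2799 and 3383 CPM, a call lost without the first G mouse (adjusted p = 0.0802) or the second L mouse (adjusted p = 0.107). The calls of Hist1h1a, Hist1h2bc and H2afj were also lost when some single mice were left out, with adjusted p from 0.0549 to 0.118. H3f3a, which encodes the same protein, was not called. Of 10 mitochondrially encoded protein genes 2 were higher and 1 lower, 30% called against 48.2% of all genes. The call of mt-Atp6, higher, was lost without either G mouse or the second L mouse (adjusted p from 0.0771 to 0.201), and that of mt-Nd2, higher, without the second G mouse (adjusted p = 0.11) or the second L mouse (adjusted p = 0.0993). The lower gene was mt-Cytb. In every basal sum mt-Atp6 was at or below 5.05 CPM, and the median share of mitochondrial UMIs per basal cell was 0.959% and 0.905% in G and 0.686% and 0.881% in L.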
